A study of Mus musculus with 8 samples.

Results

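Amino acid transporter genes were taken here as the genes whose symbols place them in solute carrier families SLC1, SLC3, SLC6, SLC7, SLC36, SLC38 or SLC43, leaving out pseudogenes marked as such. The pattern matched 66 of the 45232 genes in the deposited table, and the 43 with at least 1 count in any library are described. Of these 43, 39 are transporter genes and 4 (Slc7a6os, Slc36a1os, Slc36a3os and Slc6a19os) are opposite-strand genes that share only the name. The cells were CD8+ T cells of OT-I mice, whose T cell receptor is specific for the ovalbumin peptide SIINFEKL, activated with that peptide and then kept with IL-2 for 5 days. The 4 pEtn libraries came from RPMI medium with 10% FBS to which 470 µM o-phosphoethanolamine (pEtn) was added, and the 4 RPMI libraries from RPMI medium with 10% FBS alone. The comparison asks which transcripts differ when this phosphorylated precursor of phosphatidylethanolamine is added. Nothing in the labels says whether the numbered libraries came from separate mice or cultures, so p-values measure only the spread between these libraries.

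Activated T cells import large amounts of amino acids to build protein and nucleotides. Leucine and other large neutral amino acids enter through a pair of proteins, a light chain that carries the substrate and the heavy chain CD98 that holds it at the cell surface, and glutamine enters through sodium-coupled carriers and exchangers. Induction of these carriers after T cell receptor and IL-2 signals is known to depend in part on the transcription factor MYC, and amino acid shortage raises several of them through ATF4. Not every family member fits the name plasma membrane amino acid transporter. The products of Slc38a9, Slc38a7 and Slc36a1 are known mainly from lysosomes, and those of Slc6a6, Slc6a8 and Slc43a3 carry taurine, creatine and purine bases.

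Total counts ran from 29223765 to 35504571 per library with pEtn and from 31280997 to 34474420 in RPMI. CD8 T cell markers (7 genes, including Cd8a, Cd3e and Trac) summed to 2348 to 2958 CPM with pEtn and 2133 to 2805 CPM in RPMI, which are counts scaled to the library totals after TMM adjustment. B cell markers (5 genes) summed to at most 3.14 CPM, with Ms4a1 and Pax5 at 0, and myeloid markers (6 genes) to at most 12.1 CPM, with Adgre1 at 0. Markers of CD4 and regulatory T cells (5 genes, 1 of 3 tested called higher) summed to 52.4 to 68.2 CPM with pEtn and 26.5 to 54.8 CPM in RPMI, while Cd4 itself was at most 1.03 CPM in any library; the part of such cells in the results was not tested. Natural killer markers (4 genes, Klra8 at 0) summed to 209 to 486 CPM with pEtn and 349 to 615 CPM in RPMI, most of it Eomes (225, 452, 213 and 202 CPM with pEtn, against 459.6, 584, 399 and 330.4 CPM in RPMI), which CD8 T cells also express, with Ncr1 at most 0.0951 CPM. Klrb1c, also of this list, stood at 16.8, 33.7, 5.94 and 7.25 CPM with pEtn, against 21.1, 31.5, 16.1 and 19.0 CPM in RPMI. The part of natural killer cells in the results was not tested. Erythroid markers (4 genes) summed to at most 0.469 CPM. Replicates 3 and 4 of a medium resembled each other far more than other pairs. Their chi-square per gene was 5.04 with pEtn and 11.2 in RPMI, against 51.1 to 107 for all others. Whether they are separate samples cannot be told from the labels, so results are also given with them summed. Fewer cells using a gene and less RNA per cell cannot be told apart in these bulk libraries.

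With pEtn and in RPMI alike, a few carriers supplied most of the transporter RNA. On the deposited TPM scale, which corrects for gene length and so allows genes to be compared, Slc7a5, Slc38a2, Slc3a2, Slc1a5, Slc38a1 and Slc7a1 together held 71.9% to 78.2% of the summed TPM of the 43 genes in every library. Slc7a5, the light chain that carries leucine and other large neutral amino acids, led with 259 ± 36.3 TPM with pEtn and 403 ± 57.7 TPM in RPMI (SD, n = 4 each). Slc38a2, a sodium-coupled carrier of glutamine and other small neutral amino acids, had 165 ± 24.9 TPM with pEtn and 204 ± 28.6 TPM in RPMI. Slc3a2, encoding the heavy chain CD98, had 151 ± 13.5 TPM with pEtn and 216 ± 8.67 TPM in RPMI. Slc1a5, the glutamine exchanger ASCT2, had 102 ± 11.9 TPM with pEtn and 148 ± 11.3 TPM in RPMI, Slc38a1, a relative of Slc38a2, had 97.8 ± 1.77 TPM with pEtn and 129 ± 12.9 TPM in RPMI, and Slc7a1, the main arginine and lysine carrier of many cells, had 81.2 ± 4.69 TPM with pEtn and 125 ± 9.67 TPM in RPMI. The taurine carrier Slc6a6, with 84.4 ± 10.9 TPM with pEtn and 99.3 ± 17.5 TPM in RPMI, was next. Slc38a2 and Slc3a2 lay within an SD of each other in both media, and so did Slc1a5 and Slc38a1, and Slc7a1 and Slc6a6, with pEtn. Slc7a5 stood clear of the rest in both media.

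The 43 genes summed to 1169 ± 97.3 TPM with pEtn and 1605 ± 111 TPM in RPMI (SD, n = 4 each). The pEtn libraries ranged from 1081 to 1259 TPM and the RPMI libraries from 1486 to 1712 TPM, so the sums did not overlap. This sum is given as a description, and its main part is the 6 genes just named. Slc7a5 took 22.1% ± 1.34 of it with pEtn and 25.0% ± 2.12 in RPMI (SD, n = 4 each).

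**Figure D1:**
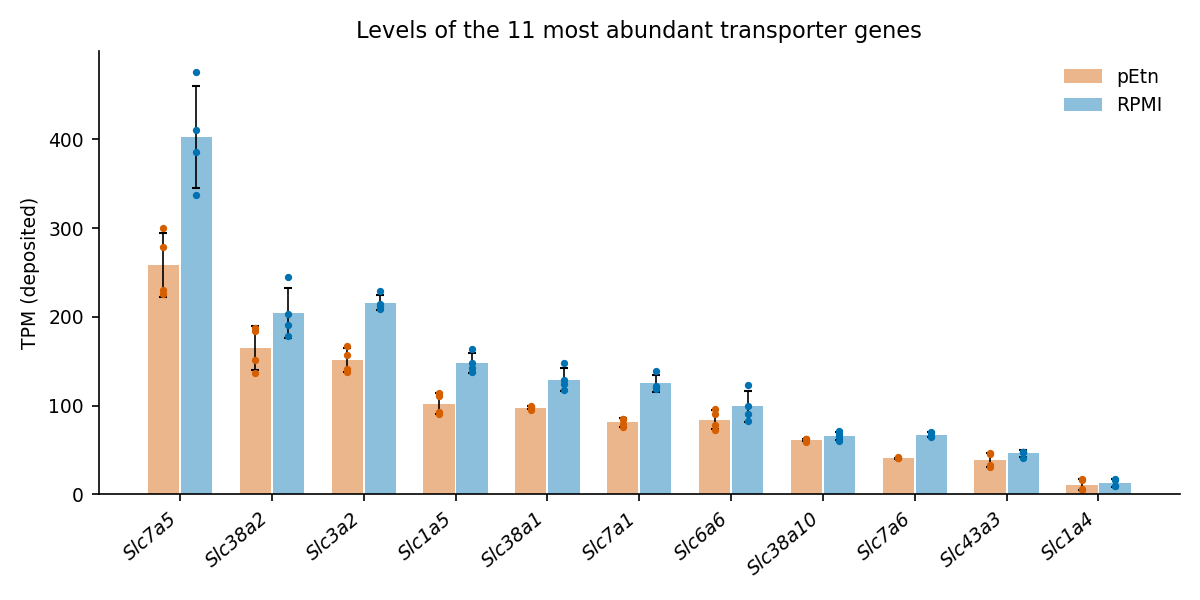
Deposited TPM of the 11 most abundant transporter genes in each library (points), with bars for the mean and error bars for the SD of 4 libraries per medium. Slc7a5 averaged 259 TPM with pEtn and 403 TPM in RPMI, and for Slc7a5, Slc3a2, Slc1a5, Slc38a1, Slc7a1 and Slc7a6 every pEtn library lay below every RPMI library.

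Transporter genes that passed the test were lower with pEtn. Counts of 28 of the 43 genes passed the filter on low counts and were tested with edgeR, and 8 of the 28 were called lower and 0 higher at an adjusted p under 0.05. Over all 11862 genes tested 7.56% were called lower and 5.22% higher. At an unadjusted p under 0.05 edgeR had 11 lower and 1 higher, against 1760 and 1615 of all 11862 genes. DESeq2 called 8 lower and 1 higher, the last being Slc6a19, against 1288 and 974 of all genes. The share called lower thus lay above that of all genes, which is given as a description and not as a test of the families. The 8 comprise the heavy chain Slc3a2, 2 of 4 tested light chains, both tested cationic carriers, and 1 tested gene each of SLC1, SLC38 and SLC6. The median log2 fold change of the 28 was -0.26, against 0.02 for all genes tested. In 9 of the 28, the 8 called genes and the opposite-strand gene Slc7a6os, every pEtn library lay below every RPMI library, and in 1 above. Over all genes tested the media did not overlap for 20.4%, 10.6% below and 9.74% above. With the replicate number as a block 13 were called lower, Slc7a6os among them, and 2 higher (16.5% and 15.8% of all genes). With replicates 3 and 4 summed only Slc7a1 and Slc7a6 were called, both lower, against 246 lower and 79 higher of 11992 genes. With the block and the sum together the same 8 were lower and 2 were higher, against 1285 and 1044 of all genes. The 5 that the block alone added were thus lost.

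**Figure D2:**
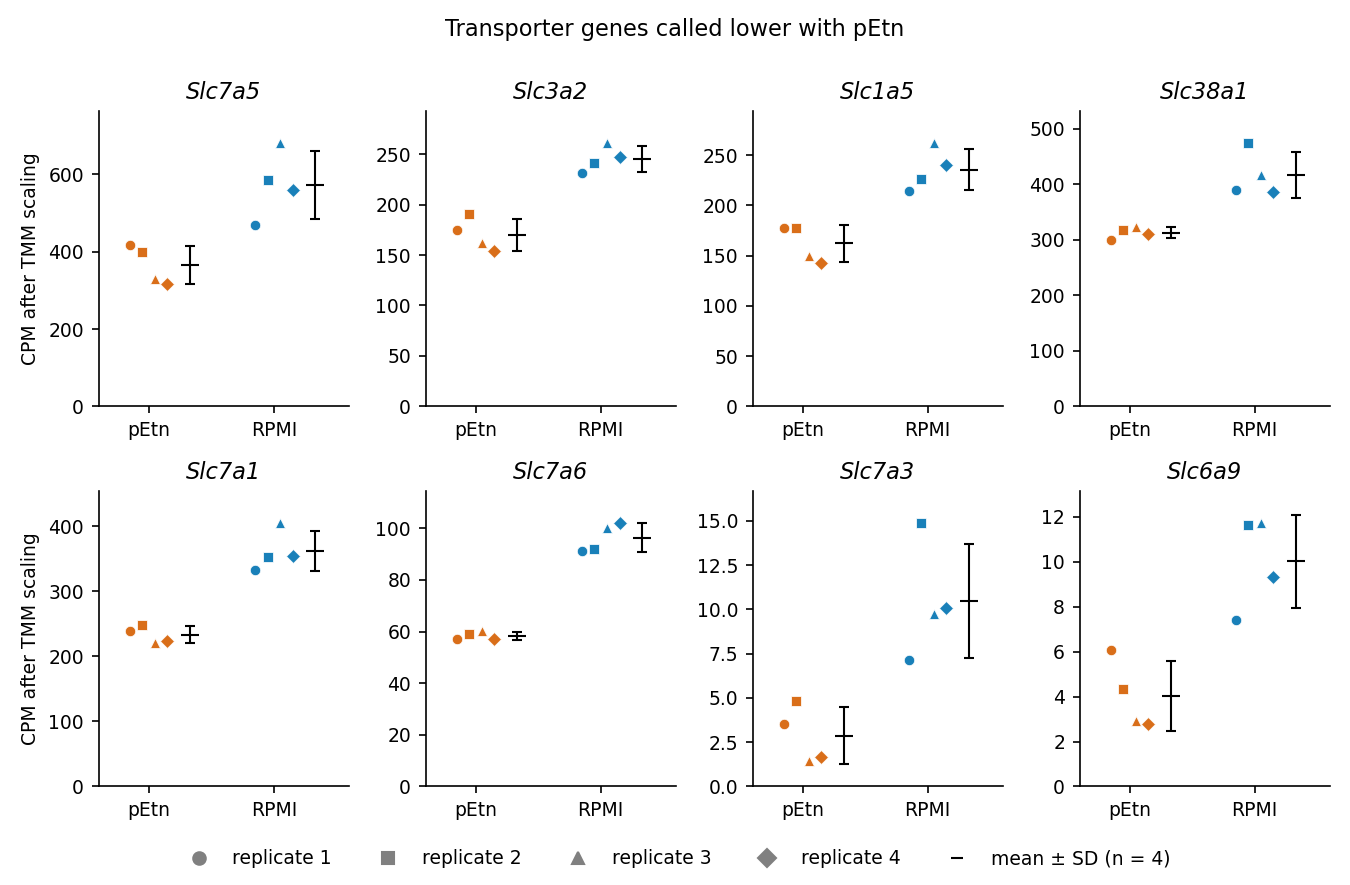
CPM after TMM scaling of the 8 transporter genes called lower with pEtn, for each library (1 symbol per replicate number), with the mean and SD of 4 libraries; every axis starts at 0. In all 8 panels each pEtn library lies below each RPMI library, with the smallest ratio between them for Slc7a5 (highest pEtn library 417 CPM, lowest RPMI library 468 CPM).

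The heavy chain gene Slc3a2 (ENSMUSG00000010095) fell with pEtn. It stood at 174, 190.4, 162 and 154 CPM with pEtn, against 232, 241, 261 and 247 CPM in RPMI. The pEtn libraries were all below the RPMI libraries and differed little among themselves. The change was -0.53 on the log2 scale (SE 0.09, edgeR adjusted p = 0.00685), 1.44-fold lower with pEtn, and the adjusted p was 0.0806 with replicates 3 and 4 summed. The other heavy chain gene, Slc3a1, known from cystine uptake in kidney, had 13 counts over all 8 libraries and was not tested.

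Both abundant light chain genes that pair with CD98 fell as well. Slc7a5 (ENSMUSG00000040010) stood at 417, 398, 330.2 and 316 CPM with pEtn, against 468, 584, 681 and 559 CPM in RPMI. Its media did not overlap, but replicate 1 was the highest with pEtn and the lowest in RPMI. It fell by 0.65 on the log2 scale (SE 0.13, edgeR adjusted p = 0.0137), and the adjusted p was 0.0984 with replicates 3 and 4 summed. Slc7a6 (ENSMUSG00000031904), whose product exchanges arginine and other cationic amino acids for neutral ones such as glutamine, stood at 56.9, 59.0, 60.2 and 57.0 CPM with pEtn, against 91.2, 92.0, 100.2 and 102 CPM in RPMI. The libraries of each medium lay close together and far from the other medium. Slc7a6 was 1.65-fold lower (-0.73 on the log2 scale, SE 0.08, edgeR adjusted p = 0.00125), the smallest adjusted p among the 28 tested genes, and kept its call with replicates 3 and 4 summed (adjusted p = 0.0216).

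Slc7a6os, on the opposite strand beside Slc7a6, averaged 21.4 ± 1.73 CPM with pEtn and 25.9 ± 1.36 CPM in RPMI (SD, n = 4 each). Its media did not overlap, with a log2 fold change of -0.27 and an edgeR adjusted p of 0.110 (0.0376 with the block, 0.105 when replicates 3 and 4 were summed under the block). In the GENCODE M21 annotation, used here only for this check, the exons of the pair share 0 bases.

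Since the heavy and light chain work as a pair, their RNA levels were set against each other. The ratio of Slc7a5 to Slc3a2 TPM was 1.90, 1.67, 1.62 and 1.64 with pEtn, against 1.61, 1.93, 2.08 and 1.80 in RPMI. The ranges overlapped, and the means were 1.71 ± 0.131 with pEtn and 1.86 ± 0.199 in RPMI (SD, n = 4 each). The mean log2 ratio differed by -0.12 (2-sided exact permutation p = 0.314, where 0.0286 is the smallest possible), which does not show that the ratio was equal.

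Other light chains were scarce. Slc7a11, the light chain of the cystine and glutamate exchanger that supplies cysteine for glutathione, stood at 0.571, 1.23, 0.276 and 0.282 CPM with pEtn, against 0.660, 2.05, 1.51 and 1.46 CPM in RPMI. Number 1 differed least, and pEtn replicate 2 lay above RPMI replicate 1. Its log2 fold change was -1.26 (SE 0.53, edgeR adjusted p = 0.152), with 0.0341 under the block and 0.0889 when replicates 3 and 4 were summed under the block. Without pEtn replicate 2 the log2 fold change was -1.92 (edgeR adjusted p = 0.0356). With any other single library left out the edgeR adjusted p was 0.0946 to 0.300. Slc7a7, a relative of Slc7a6, averaged 0.311 ± 0.291 CPM with pEtn and 0.383 ± 0.0800 CPM in RPMI (SD, n = 4 each, edgeR adjusted p = 0.790). Slc7a8, another large neutral amino acid carrier, had 7 counts in all, at most 3 in a library.

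Carriers of cationic amino acids fell too. Slc7a1 (ENSMUSG00000041313) stood at 239, 248, 220.2 and 224 CPM with pEtn, against 333, 352, 405 and 354 CPM in RPMI. The highest pEtn library was well below the lowest RPMI library. It was 1.55-fold lower (-0.63 on the log2 scale, SE 0.09, edgeR adjusted p = 0.00264) and remained called with replicates 3 and 4 summed (adjusted p = 0.0364). Slc7a3 (ENSMUSG00000031297), a carrier of the same kind known from brain, was far less abundant and stood at 3.52, 4.84, 1.45 and 1.64 CPM with pEtn, against 7.14, 14.9, 9.73 and 10.1 CPM in RPMI. The pEtn libraries 3 and 4 were the lowest and RPMI replicate 2 the highest. Slc7a3 fell by 1.87 on the log2 scale (SE 0.40, edgeR adjusted p = 0.0146), the largest change among the 8 called genes, with an adjusted p of 0.0833 when replicates 3 and 4 were summed. Slc7a2, the inducible arginine carrier of macrophages, had 13 counts over all libraries and Slc7a4 had 17.

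In the SLC1 and SLC38 families the glutamine carriers Slc1a5 and Slc38a1 fell. Slc1a5 (ENSMUSG00000001918) stood at 178, 178, 149.7 and 143 CPM with pEtn, against 214, 226, 262 and 240.1 CPM in RPMI. The groups did not overlap. Slc1a5 fell by 0.54 on the log2 scale (SE 0.11, edgeR adjusted p = 0.0116, 0.107 with replicates 3 and 4 summed). Slc38a1 (ENSMUSG00000023169) stood at 300.01, 317, 323 and 311 CPM with pEtn, against 389, 475, 416 and 385 CPM in RPMI. The pEtn libraries were nearly level, and RPMI replicate 2 was the highest. Slc38a1 fell by 0.41 on the log2 scale (SE 0.09, edgeR adjusted p = 0.0161), and its adjusted p was 0.1002 with replicates 3 and 4 summed and 0.0544 without pEtn replicate 4.

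Slc38a2 stood at 326, 328, 244 and 265 CPM with pEtn, against 309, 433, 363 and 346 CPM in RPMI. In number 1 the pEtn library was the higher, and the media overlapped. Its log2 fold change was -0.32 (SE 0.13, edgeR adjusted p = 0.152, 0.0472 with the block and 0.164 when replicates 3 and 4 were summed under the block). Slc1a4, a carrier of serine, alanine, cysteine and threonine, stood at 25.2, 23.9, 8.01 and 9.22 CPM with pEtn, against 24.3, 25.4, 13.8 and 15.0 CPM in RPMI. Its levels followed the replicate numbers, with replicates 1 and 2 above replicates 3 and 4 in both media, and the log2 differences of pEtn minus RPMI were 0.06, -0.08, -0.78 and -0.70 in numbers 1 to 4. Over all libraries its log2 fold change was -0.24 (SE 0.39, edgeR adjusted p = 0.737, 0.104 with the block).

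Among the other 5 tested SLC38 genes 0 were called, by edgeR with or without the block or by DESeq2, and 0 had an unadjusted edgeR p under 0.05. Slc38a10 averaged 150.5 ± 2.85 CPM with pEtn and 162 ± 11.7 CPM in RPMI, and Slc38a9, whose lysosomal product reports arginine to the growth kinase mTORC1, averaged 8.31 ± 1.62 CPM with pEtn and 7.03 ± 2.48 CPM in RPMI (SD, n = 4 each, edgeR adjusted p of 0.422 and 0.593). Slc38a7, a lysosomal glutamine exporter, averaged 5.28 ± 0.604 CPM with pEtn and 5.49 ± 0.401 CPM in RPMI (SD, n = 4 each, adjusted p = 0.847). Slc38a6 and Slc38a8 had log2 fold changes of 0.19 and 0.34 (adjusted p of 0.645 and 0.692). The acidic amino acid carriers were hardly detected: Slc1a1 had 38 counts over the 8 libraries, 5 with pEtn and 33 in RPMI, and Slc1a2 had 3 counts.

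In the SLC6 family the glycine carrier Slc6a9 (ENSMUSG00000028542) fell. It stood at 6.09, 4.32, 2.90 and 2.76 CPM with pEtn, against 7.41, 11.6, 11.7 and 9.33 CPM in RPMI. Number 1 held both the highest pEtn and the lowest RPMI value. Slc6a9 was 2.49-fold lower (-1.32 on the log2 scale, SE 0.28, edgeR adjusted p = 0.0141), with an adjusted p of 0.0914 when replicates 3 and 4 were summed. Slc6a6 stood at 209, 229, 186 and 169 CPM with pEtn, against 230.04, 292, 216 and 200.1 CPM in RPMI. Every number was lower with pEtn by a small amount, and the media overlapped. Its log2 fold change was -0.24 (SE 0.14, edgeR adjusted p = 0.290, 0.0307 with the block and 0.106 when replicates 3 and 4 were summed under the block).

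Slc6a19, a neutral amino acid carrier known from intestine and kidney, ran the other way and is given here because its values stood out once seen. It stood at 2.25, 1.45, 0.415 and 1.07 CPM with pEtn, against 0.390, 0.381, 0.126 and 0 CPM in RPMI. Each pEtn library exceeded each RPMI library, the lowest pEtn value of 0.415 CPM only just above the highest RPMI value of 0.390 CPM. These levels rest on 12 to 71 counts per library with pEtn and 0 to 13 in RPMI. The log2 fold change was 2.496 (SE 0.75, edgeR adjusted p = 0.0569), with 0.00613 under the block. The creatine carrier Slc6a8 and the GABA carrier Slc6a13 averaged under 2 CPM in both media (log2 fold changes of -0.45 and 0.78, edgeR adjusted p of 0.288 and 0.351).

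Neither SLC36 nor SLC43 held a called gene by edgeR or DESeq2, and 0 of their 5 tested genes had an unadjusted edgeR p under 0.05. Slc36a1, a proton-coupled exporter of small amino acids from lysosomes, was chosen after its values were seen and stood at 14.8, 9.35, 16.8 and 17.96 CPM with pEtn, against 10.8, 6.95, 11.99 and 11.99 CPM in RPMI. It was higher with pEtn in each of the 4 numbers, by 0.46, 0.43, 0.48 and 0.58 on the log2 scale in numbers 1 to 4, although the media overlapped. Its log2 fold change was 0.50 (SE 0.24, edgeR adjusted p = 0.198, 0.00543 with the block). Slc36a4 averaged 15.9 ± 1.85 CPM with pEtn and 15.9 ± 3.18 CPM in RPMI (SD, n = 4 each, edgeR adjusted p = 0.991). Slc43a3 averaged 66.6 ± 13.6 CPM with pEtn and 79.0 ± 7.15 CPM in RPMI and Slc43a1, a facilitated carrier of large neutral amino acids, 0.732 ± 0.454 CPM with pEtn and 1.30 ± 0.596 CPM in RPMI (SD, n = 4 each, adjusted p of 0.312 and 0.405). Slc43a2, a relative of Slc43a1, averaged 20.02 ± 5.86 CPM with pEtn and 17.3 ± 2.68 CPM in RPMI (SD, n = 4 each, adjusted p = 0.574). With the block Slc43a1 was called lower (adjusted p = 0.0472), but not with replicates 3 and 4 also summed (0.0647).

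**Figure D3:**
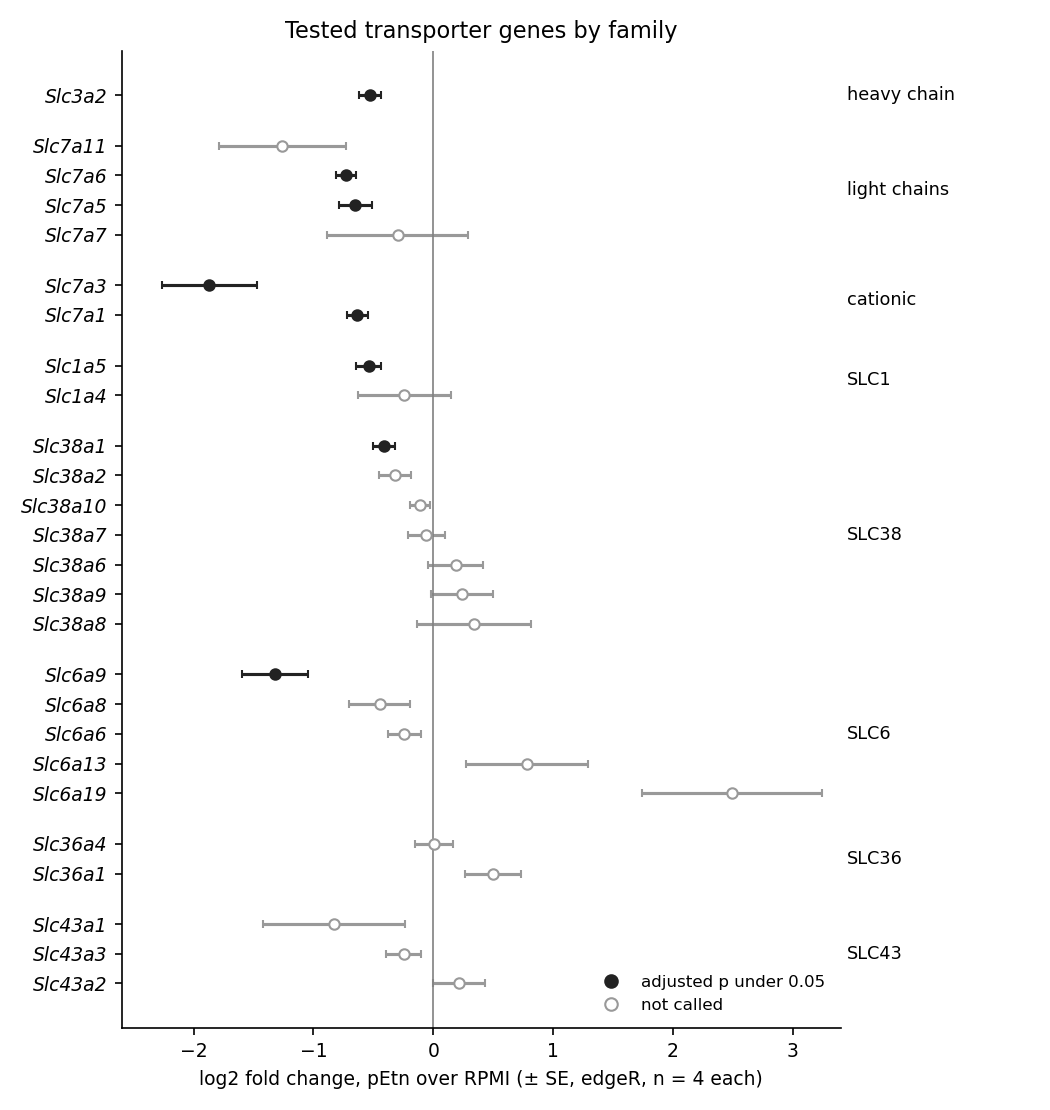
Log2 fold change of pEtn over RPMI with its SE (edgeR, 4 libraries each) for the 26 tested transporter genes, opposite-strand genes left out, in family order. Filled points (adjusted p under 0.05) are the 8 genes that were lower, from -1.87 for Slc7a3 to -0.41 for Slc38a1; the open point farthest right is Slc6a19 at 2.496.

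The size of the differences varied with the replicate number. Across the 8 called genes, libraries of the same number differed by a median of -0.39, -0.57, -0.84 and -0.79 on the log2 scale in numbers 1 to 4. All 32 differences were below 0. This adds nothing to the calls, since every pEtn library lay below every RPMI library in these 8 genes. Slc7a5 differed by -0.17, -0.55, -1.04 and -0.82 and Slc6a9 by -0.28, -1.43, -2.02 and -1.75, while Slc7a6 differed by -0.68, -0.64, -0.74 and -0.84. Slc7a5 and Slc6a9 were thus close between media in number 1, and Slc7a6 differed alike in all 4 numbers. Slc38a1 did not follow the medians, at -0.37, -0.58, -0.36 and -0.31 in numbers 1 to 4. With replicates 1 and 2 only, edgeR called 32 genes in all and 0 transporter genes (adjusted p of 0.0948 to 0.326 for the 8), and the log2 fold changes of the 8 ran from -1.41 for Slc7a3 to -0.32 for Slc1a5. With replicates 3 and 4 only it called 13 of 27 tested family genes lower, Slc7a6os among them, and 4 higher. Over all 11788 genes of that fit it called 2914 lower and 2761 higher, 5675 in all.

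Malat1 and Neat1, long RNAs kept in the nucleus and used as a marker of RNA quality, moved with the same numbers. Their sum was 48.4, 58.0, 28.1 and 26.2 CPM with pEtn, against 50.2, 51.0, 11.6 and 10.6 CPM in RPMI, a log2 difference of -0.05, 0.18, 1.28 and 1.31 in numbers 1 to 4. Numbers 3 and 4 had the lower sums in both media, most of all in RPMI; with pEtn this came from Neat1, since Malat1 stood at 18.1, 22.1, 18.5 and 17.2 CPM with pEtn, against 19.7, 25.6, 7.03 and 6.73 CPM in RPMI. The part of RNA quality in the transporter differences was not tested.

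**Figure D4:**
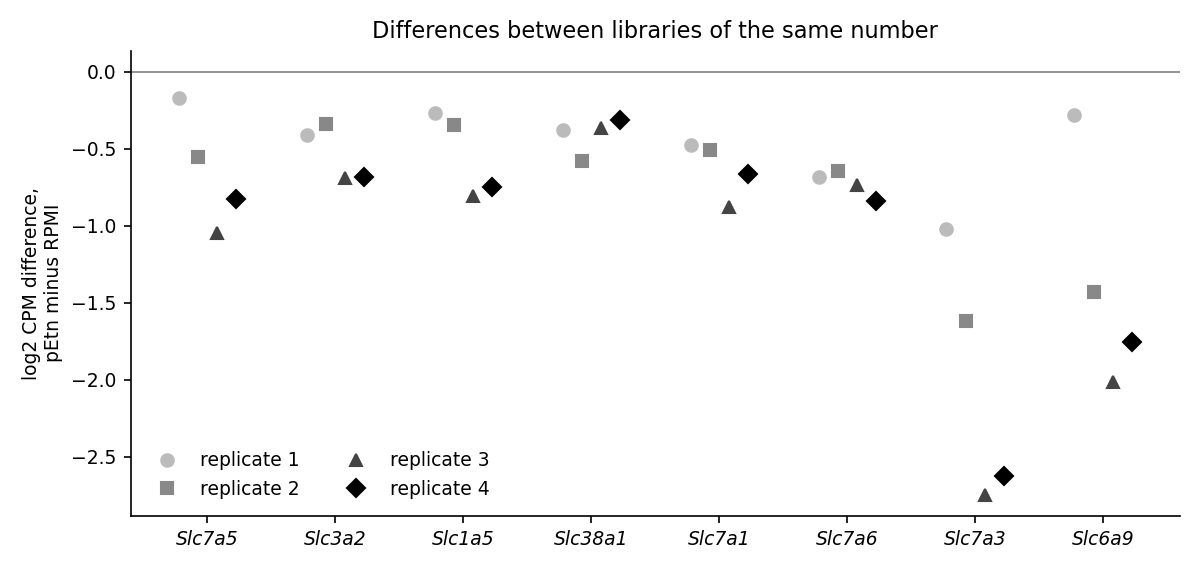
Log2 difference in CPM, pEtn minus RPMI, between libraries of the same replicate number for the 8 called transporter genes. All 32 points lie below 0, which the lack of overlap between the media in these genes already fixes. The number 1 point of Slc7a5 is nearest to 0 (-0.17), and Slc7a6 has the narrowest spread around -0.73.

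Since several of these genes are known as ATF4 or MYC targets and moved together, the 300 bases around their transcription start (250 before, 50 after) were searched for TGATGNAA, the core of the element bound by ATF4 with C/EBP partners, and for CACGTG, the E-box bound by MYC, on both strands; next to each other the motifs can share 2 bases, but no promoter of these genes held both. The RefSeq promoters of build GRCm38.p6 held entries for 34 of the 43 genes, 50 promoters in all. TGATGNAA was found in promoters of Slc7a11, Slc1a4 and Slc7a7 (4 of 50 promoters, 8%, against 3.97% of all 32851 promoters). The Slc7a7 promoters with a match, at chr14:54417653-54417952 and chr14:54417895-54418194, overlap and share a match, so the same site counts for both. CACGTG was found in those of Slc36a1, Slc38a7, Slc43a1 and Slc6a3 (4 of 50 promoters, 8%, against 7.15%). Of the 8 called genes 4 had entries (Slc3a2, Slc7a1, Slc7a6 and Slc6a9), and neither motif was in their 8 promoters. No match says only that these letters are not in this window. The first sequence shows the promoter of the called heavy chain gene, with no match, and the next ones show the matches in capitals in genes that were not called. All are on the minus strand, written 5′ to 3′, at chr19:8713848-8714147 for Slc3a2, chr3:50443564-50443863 for Slc7a11 and chr11:20332664-20332963 for Slc1a4.
Slc3a2: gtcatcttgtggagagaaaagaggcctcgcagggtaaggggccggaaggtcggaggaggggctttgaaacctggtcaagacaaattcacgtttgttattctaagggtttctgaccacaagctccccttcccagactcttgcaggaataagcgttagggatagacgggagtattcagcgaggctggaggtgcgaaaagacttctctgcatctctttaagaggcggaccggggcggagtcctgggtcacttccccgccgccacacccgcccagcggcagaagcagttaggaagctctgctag
Slc7a11: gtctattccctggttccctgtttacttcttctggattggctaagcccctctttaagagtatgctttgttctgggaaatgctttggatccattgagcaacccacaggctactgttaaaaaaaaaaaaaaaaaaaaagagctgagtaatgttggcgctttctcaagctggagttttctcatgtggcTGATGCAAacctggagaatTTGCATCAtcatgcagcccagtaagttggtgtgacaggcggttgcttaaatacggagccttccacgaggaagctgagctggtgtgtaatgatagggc
Slc1a4: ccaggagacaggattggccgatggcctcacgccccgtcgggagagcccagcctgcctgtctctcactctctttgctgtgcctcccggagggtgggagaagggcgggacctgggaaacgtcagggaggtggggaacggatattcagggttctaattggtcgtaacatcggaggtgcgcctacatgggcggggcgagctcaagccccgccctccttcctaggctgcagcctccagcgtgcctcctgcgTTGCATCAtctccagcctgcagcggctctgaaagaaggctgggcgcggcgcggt
In Slc7a11 the matches began at bases -66 and -47, where -1 is the last base before the start site, the first on the written strand and the other on the opposite strand. In Slc1a4 the match began at base -4, on the opposite strand, and ran over the start site.

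Genes that sense, use or handle amino acids were counted from lists of their own. Of 35 genes of amino acid sensing by mTORC1, all tested, 4 fell and 2 rose, with a median log2 fold change of -0.08, and 8 fell and 4 rose with the block. Over all genes tested 7.56% fell and 5.22% rose, and 16.5% and 15.8% with the block. In both directions the counts lay within a few genes of these shares, and they are not read as a result about amino acid sensing. Flcn and Fnip2, partners that act on the Rag GTPases, fell by 0.64 and 0.73 on the log2 scale (edgeR adjusted p of 0.00742 and 0.0185). Flcn stood at 18.8, 17.0, 15.4 and 15.7 CPM with pEtn, against 25.4, 24.3, 29.7 and 24.7 CPM in RPMI, without overlap. Sesn3, a relative of the leucine sensor sestrin 2, rose by 0.55 and Gatsl2, the present Castor2, a relative of the arginine sensor Castor1, by 0.73 (adjusted p of 0.0171 and 0.0175). Sesn2, for sestrin 2 itself, is added after its values were seen and stood at 32.9, 39.7, 26.9 and 29.1 CPM with pEtn, against 42.6, 55.1, 128 and 119 CPM in RPMI. RPMI replicates 3 and 4 were far above all other libraries. It fell by 1.42, the largest change among the 6 called genes of this list (SE 0.33, edgeR adjusted p = 0.0231, 0.0884 with the block, where it was not called). Fnip2, Sesn3 and Gatsl2 each lost the call without at least 1 single library, with the highest adjusted p at 0.0559 without pEtn replicate 3, 0.0585 without RPMI replicate 3 and 0.0545 without RPMI replicate 4. Of the genes named by rule from this and the next lists, Bcat1, Ahcy, Slc15a1, Slc16a1 and Slc16a10 kept their calls with replicates 3 and 4 summed.

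Among 17 tested transcription factors and kinases of the amino acid response 3 fell and 0 rose (median -0.15). Over all genes tested 7.56% fell and 5.22% rose. With the block 5 fell and 1 rose, against 16.5% and 15.8% of all genes. DESeq2 called 3 lower and 1 higher, against 1288 and 974 of all 11862 genes. At an unadjusted edgeR p under 0.05, 4 were lower and 1 higher, against 1760 and 1615 of all genes. Myc stood at 103, 130.1, 225 and 210.3 CPM with pEtn, against 219, 283, 542 and 464 CPM in RPMI. It was lower with pEtn in each number, yet numbers 3 and 4 were high in both media, so the groups overlapped. It fell by 1.17 on the log2 scale (edgeR adjusted p = 0.0438, 5.32e-05 with the block), and lost the call in 5 of 8 fits that leave out a library (highest adjusted p 0.121, without RPMI replicate 3), with no filter on low counts (0.107), with limma on log2(TPM + 1) (0.0508) and with replicates 3 and 4 summed (0.136). Max, the partner of MYC, fell by 0.51 and Nfe2l2, a factor known to induce Slc7a11, by 0.61 (adjusted p of 0.0120 and 0.00587). Atf4, given because its motif was searched for, was not called. It stood at 399, 464, 369 and 381 CPM with pEtn, against 486, 398, 596 and 625 CPM in RPMI, and the media overlapped. Its log2 fold change was -0.38 (edgeR adjusted p = 0.117, 0.109 with the block).

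Enzymes that act on the transported amino acids fell in 8 of 28 tested cases and rose in 0, against 7.56% and 5.22% of all genes tested (median -0.21). The block gave 11 lower and 1 higher (16.5% and 15.8% of all genes). DESeq2 gave 9 lower and 0 higher, against 1288 and 974 of all 11862 genes. An unadjusted edgeR p under 0.05 gave 12 lower and 1 higher, against 1760 and 1615 of all genes. Bcat1, the cytosolic transaminase of leucine, isoleucine and valine, stood at 41.2, 39.2, 38.9 and 34.9 CPM with pEtn, against 77.9, 74.9, 92.1 and 88.6 CPM in RPMI. The media were far apart, a fall of 1.11 on the log2 scale (SE 0.10, edgeR adjusted p = 0.000618). Mat2a and Ahcy, which make and recycle the methyl donor derived from methionine, fell by 0.75 and 0.85 (adjusted p of 0.00619 and 0.00194). Cth, which makes cysteine from cystathionine, fell by 2.98 (adjusted p = 0.00788) at a mean of 0.179 CPM with pEtn and 1.44 CPM in RPMI, and by 3.75 without pEtn replicate 2. It stood at 0.0634, 0.401, 0.138 and 0.113 CPM with pEtn, where 1 read is 0.0282 to 0.0345 CPM, so its size rests on few reads. Over the alternative fits its log2 fold change ran from -3.83 to -0.99. The call was lost with replicates 3 and 4 summed and with replicates 1 and 2 only.

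Of 15 genes of ubiquitin ligases and trafficking proteins that act on transporters at the surface, 0 were called by edgeR or DESeq2 (median 0.12). At an unadjusted edgeR p under 0.05, 1 was higher and 0 lower, against 1615 and 1760 of all 11862 genes. With the block 3 rose and 1 fell, where 15.8% of all genes rose and 16.5% fell. Among 12 tested carriers outside the 7 families 3 fell and 0 rose, against 7.56% and 5.22% of all genes tested. At an unadjusted edgeR p under 0.05, 4 were lower and 1 higher, against 1760 and 1615 of all genes. DESeq2 called 3 lower and 0 higher, against 1288 and 974. With the block 4 were lower and 2 higher, against 16.5% and 15.8%. The 3 that fell by edgeR were the peptide carrier Slc15a1 at -4.33, the aromatic amino acid carrier Slc16a10 at -2.88 and the lactate carrier Slc16a1 at -0.83 on the log2 scale (edgeR adjusted p of 0.000627, 0.00171 and 0.000832). Slc15a1 was scarce with pEtn, at 0.381, 0.247, 0.933 and 0.423 CPM, against 8.10, 6.89, 12.1 and 12.6 CPM in RPMI. The size of its change depended on the fit, from -4.81 to -2.69 over the alternatives. Slc16a10, found at 3.17, 11.3, 4.59 and 4.79 CPM with pEtn, against 35.4, 54.997, 47.5 and 38.1 CPM in RPMI, changed more on the log2 scale than any of the 8 called genes of the 7 families.

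The 15 genes that were not tested had between 1 and 62 counts over all 8 libraries and at most 15 in any library. They are Slc36a3, Slc1a1, Slc38a11, Slc36a1os, Slc7a4, Slc3a1, Slc7a2, Slc7a8, Slc6a4, Slc1a2, Slc6a12, Slc6a19os, Slc6a3, Slc6a20b and Slc6a17, and none separated the media without overlap. The remaining tested gene, Slc36a3os, averaged 0.956 ± 0.104 CPM with pEtn and 0.858 ± 0.396 CPM in RPMI (SD, n = 4 each, edgeR adjusted p = 0.819). A further 23 genes matching the symbols had no count in any library.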

How the data were processed

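RNA of 8 libraries, 4 per medium, was sequenced in bulk; per the labels' protocols sorted cells were lysed and their RNA amplified by a SmartSeq procedure. Per the submitters' processing notes the genome was GRCm39. Which aligner, counter, annotation and strand setting were used is not given in the sources used here. The table deposited by the authors holds whole-number total counts per gene, which entered the tests. The TPM deposited by the authors, scaled per length and library, gave levels between genes. Per the file headers the authors also deposited RPKM, scaled per kilobase and depth, which was not used. A column deposited by the authors as CPM is a signal, the counts times 1 constant per library, and was not used. Here CPM means counts over TMM-scaled library totals. Depth was 29223765 to 35504571 counts per library; SDs and SEs are spread between libraries.

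The count test was that of edgeR 4.0.16 under R 4.3.3 (filterByExpr, TMM, robust quasi-likelihood F test, Benjamini-Hochberg over 11862 genes; called at an adjusted p under 0.05; SE from the F statistic). DESeq2 1.42.0, limma 3.58.1 on log2(TPM + 1), other filters, no TMM, the replicate block, subsets and left-out libraries were alternatives. The scripts were tested on simulated data. Between libraries of the same number, deviations from their group's mean correlated at 0.52 to 0.60 (highest for different numbers 0.50). The numbers, shared by both media in the labels, were therefore taken as pairs in the replicate block and in the differences by number (0.1 was the minimum set). The main test was not paired, and it gave the calls, adjusted p and SE wherever no other fit is named. Called genes, genes averaging at least 10 TPM and 13 set genes are named, with up to 4 called genes per further list. Other family members are named to account for all 43, Slc6a19, Slc36a1 and Sesn2 for their values, and Atf4 for its motif. Genes, lists and motifs were chosen with earlier results of these data known. Promoters are from RefSeq (GRCm38.p6), and no coordinates were converted.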

Additional observations from a re-analysis of the deposited data

Results flagged for a closer look

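In RPMI the purine base carrier Slc43a3 stood at 68.4 CPM in replicate 1, apart from the other 3 libraries at 81.5 to 83.6 CPM. Mat2a stood at 362 CPM in RPMI replicate 1, against 493 to 518 CPM in the other 3. These were 2 of 68 groups of 4 libraries examined, and chance alone marks about 1 in 20 such groups.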

How the results depend on the processing

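All 8 calls held without a filter, with 5 CPM in 4 libraries required, with DESeq2, without TMM, with limma on log2(TPM + 1), and with the replicate block, alone or over summed replicates 3 and 4. Leaving out 1 library gave 7 to 9 lower and 0 higher; without pEtn replicate 4 Slc38a1 was lost. The replicate block gave 13 lower (Slc7a6os among them) and 2 higher. Replicates 3 and 4 summed gave 2 lower, and the same with the block 8 lower (the 5 added by the block alone lost) and 2 higher. DESeq2 gave 1 higher, replicates 1 and 2 only 0 lower, and replicates 3 and 4 only 13 lower (Slc7a6os among them) and 4 higher. All genes called numbered 1516, with 3830 under the block, 325 with replicates 3 and 4 summed, 2329 with both, 32 in replicates 1 and 2, 5675 in replicates 3 and 4, and 796 to 1638 without 1 library (lowest without RPMI replicate 3; 861 with RPMI replicate 4 left out, and 997, 941 and 817 for pEtn 1, 3 and 4). The median of the tested genes stayed between -0.33 and -0.22 without 1 library. The Slc7a5 to Slc3a2 log2 ratio differed by -0.18 to -0.06 without 1 library. Its exact sign-flip p with the replicate block was 0.500, but with 4 pairs that test cannot fall under 0.05. Slc36a4, near 0, turned sign: -0.0023 with no filter, -0.0073 with 5 CPM in 4 libraries, -0.0017 with DESeq2, -0.021 and -0.0048 with replicates 3 and 4 summed, without and with the block, -0.072 in replicates 1 and 2, and -0.073 to 0.14 without 1 library. The cause of these differences was not tested.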
